A study of Mus musculus with 6 samples.

Results

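The p53 and BCL2 family genes that govern intrinsic apoptosis were examined by prostate lobe and genotype in bulk RNA-seq of the Hi-MYC mouse. The 10 genes, taken by symbol from the deposited table of 24908 genes (where symbols are in capitals, TRP53, MDM2, BCL2, BCL2L1, MCL1, BAX, BAK1, BBC3, PMAIP1 and BCL2L11), were Trp53 and Mdm2, the anti-apoptotic Bcl2, Bcl2l1 and Mcl1, the effectors Bax and Bak1, and the BH3-only genes Bbc3, Pmaip1 and Bcl2l11. The 6 libraries came from the anterior prostate (AP), dorsolateral prostate (DLP) and ventral prostate (VP) of 1 wild-type mouse (WT) and 1 littermate heterozygous for a human c-MYC transgene (MYC). Both mice were male, of the FVB strain, 12 weeks old and fed the same purified diet. The transgene is driven in prostatic epithelium by a probasin-derived, androgen-responsive promoter. RNA was taken from an aliquot of the enzymatically dissociated lobe, so each library mixes luminal, basal, stromal and immune cells. With 1 library per lobe and genotype, no difference has a replicate check, genotype cannot be told apart from the individual mouse, and no p-value was computed.

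The p53 protein is a transcription factor that is kept low by the ubiquitin ligase Mdm2, and its classical targets include Mdm2 itself and the death genes Bax, Bbc3 and Pmaip1. The anti-apoptotic proteins of the BCL2 family hold the effectors Bax and Bak1 in check at the outer mitochondrial membrane, and BH3-only proteins release or activate them. High MYC activity is known to sensitize cells to apoptosis, in part through the Cdkn2a product ARF, which binds Mdm2 and spares p53.

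Values are FPKM, which scale fragments to transcript length and library depth, so that levels can be set side by side between genes. Depth, recovered from the steps in which low values fall, lay between 25.3 M mapped reads for WT AP and 49.6 M for MYC AP, so that low values in WT AP are the least precise. The gene listed as Myc had between 200.6 and 230.0 FPKM in the 3 WT libraries. In the MYC mouse it had 230.9 FPKM in the AP, 586.1 in the DLP and 1696 in the VP. Whether these values include reads of the human transgene is not given in the sources used here. Markers of other cells also differed with genotype. The summed FPKM of 12 hematopoietic markers was 582.9 (WT) and 400.5 (MYC) in the AP, 274.8 and 1113 in the DLP, and 140.2 and 382.2 in the VP. Cd74 alone had 470.8 and 299.4 FPKM in the AP, where the median log2 ratio of the 11 compared markers was -0.04. The sum of 7 fibroblast markers was 677.3 (WT) and 207.6 (MYC) in the VP, 1354 and 744.9 in the DLP, and 1244 and 1419 in the AP. Dcn made up most of these sums, and the markers did not move alike in the DLP, where Dcn had 1155 and 453.9 FPKM but Col1a1 10.6 and 44.8 FPKM. The seminal vesicle genes Svs4 and Svs5 were listed at 0 in WT AP and reached 292.5 and 212.0 FPKM in MYC AP. The median log2 ratio of 6 proliferation markers was 0.90 in the AP, 2.28 in the DLP and 2.08 in the VP. Mki67, Ccnb1 and Cdk1 were under 1 FPKM in every WT library. They reached the mean of 1 FPKM needed for comparison only through the MYC libraries, so these medians follow in part from the filter. In the AP, DLP and VP, Pcna had log2 ratios of -0.01, 0.27 and 0.78, and Mcm2 0.72, 1.56 and 1.70. In such mixtures, fewer cells of a type and less RNA per cell cannot be told apart, and the part that cell composition has in the values below was not tested.

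Promoter sequence is shown for the members whose window around an annotated start, 250 bases before to 50 after, holds the canonical E-box CACGTG, the palindromic site to which MYC and MAX bind. RefSeq windows of GRCm38.p6, the assembly of the mm10 build that the submitters name, were at hand for 9 of the 10 members. The E-box letters were found for 3 of these, Trp53, Bax and Bbc3. They occur in 7.15% of all 32851 windows, and in at least 1 window of 12.0% of the 9561 compared genes that have any. The stretches below run from 150 bases before the start to 30 bases after it, on the gene's strand, with CACGTG in capitals.
Trp53: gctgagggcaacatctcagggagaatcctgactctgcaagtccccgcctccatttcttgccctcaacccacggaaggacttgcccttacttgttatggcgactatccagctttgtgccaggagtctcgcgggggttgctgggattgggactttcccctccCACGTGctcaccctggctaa
Bax: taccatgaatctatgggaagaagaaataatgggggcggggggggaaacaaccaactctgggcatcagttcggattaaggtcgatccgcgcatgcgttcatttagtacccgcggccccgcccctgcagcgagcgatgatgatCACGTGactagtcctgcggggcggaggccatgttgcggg
Bbc3: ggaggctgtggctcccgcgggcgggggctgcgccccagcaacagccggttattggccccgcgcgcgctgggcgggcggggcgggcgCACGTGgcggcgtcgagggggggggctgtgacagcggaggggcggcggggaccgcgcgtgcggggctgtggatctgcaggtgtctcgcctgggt
The Trp53 stretch is chr11:69580209-69580388 (plus strand), with the site starting at position 11 counted from the start, and its first bases are shared with Wrap53, which runs the other way. The Bax stretch is chr7:45466869-45467048 (minus strand), with a site at position -9 and a second at position 36, beyond the bases shown. The Bbc3 stretch is chr7:16310281-16310460 (plus strand), with the site at position -64, and comes from 1 of the 3 Bbc3 windows at hand, the others of which do not hold these letters. A match describes the sequence and is no evidence of binding.

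The question asked of each lobe was how the balance of these genes differed between the MYC and the WT library. All 10 members reached the minimum mean of 1 FPKM across libraries, as did 12361 genes in all. The log2 ratio is log2((FPKM + 1) of MYC / (FPKM + 1) of WT), and a gene was said to rise or fall when it passed 2-fold on this scale. In the VP, Trp53 and Bbc3 rose and Bcl2l1 fell, 3 of 10 members against 12.8% of all compared genes (6.88% higher and 5.95% lower). In the DLP, Bak1 and Pmaip1 rose, 2 of 10 members against 9.85% (6.46% higher and 3.39% lower). In the AP no member passed 2-fold, against 2.65% (2.05% higher and 0.599% lower). The median log2 ratio of the members was 0.56 in the VP, 0.56 in the DLP and 0.05 in the AP, beside 0.04, 0.03 and 0.13 over all compared genes. With members so few, these counts describe the genes and were not tested as a set. On the same scale 7 of 11 compared hematopoietic markers rose and 4 of 7 fibroblast markers fell in the VP. In the DLP all 11 hematopoietic markers rose, while 2 fibroblast markers rose and 2 fell. In the AP none of the 11 passed 2-fold and 3 fibroblast markers rose. All 6 smooth muscle markers lay below 0 in the DLP (median -1.05, 3 past 2-fold) and in the VP (median -0.81, 2 past 2-fold), and all 6 above 0 in the AP (median 0.76, none past 2-fold). Of 10 genes of the dissociation response 9 lay below 0 in the VP (median -0.48), none past 2-fold, and their medians were 0.03 in the DLP and 0.16 in the AP.

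**Figure D1:**
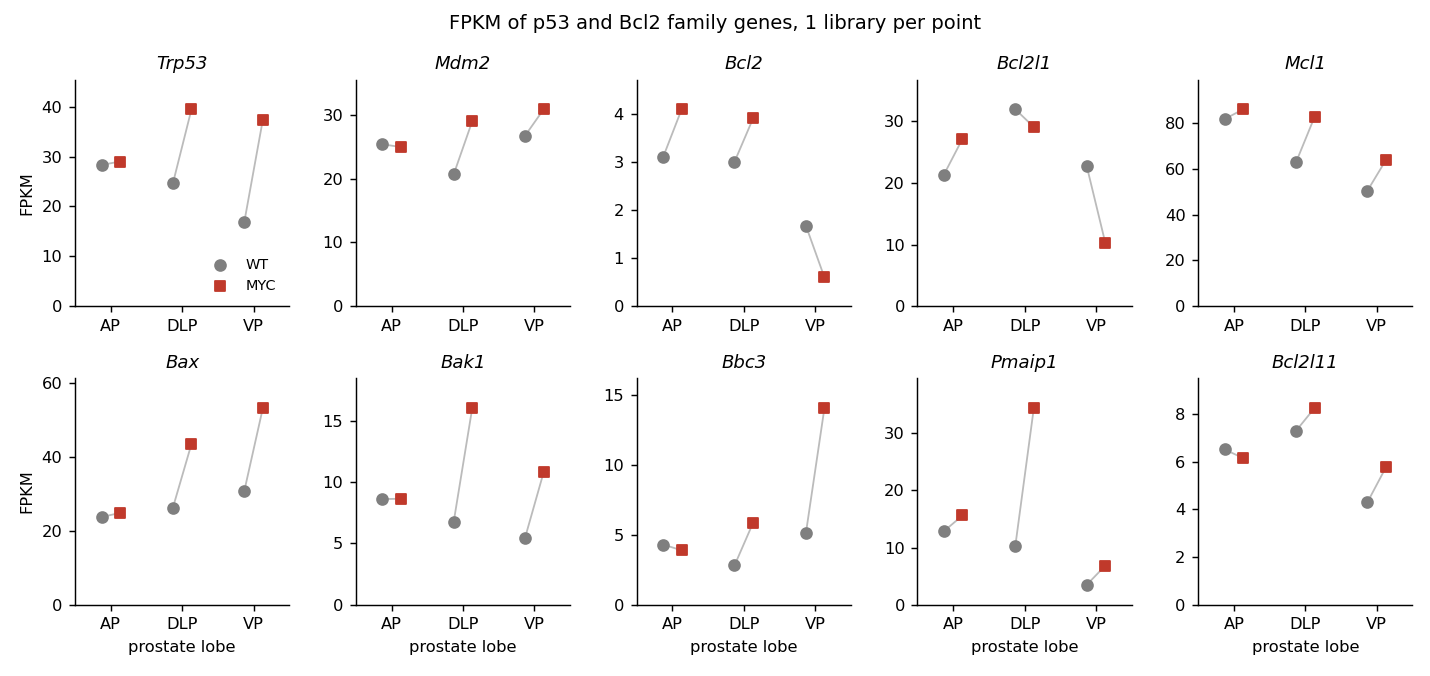
FPKM of each of the 10 genes (linear axis from 0) in the AP, DLP and VP, with WT as grey circles and MYC as red squares; each point is 1 library, and there is no error bar because there are no replicates. Trp53, Bax, Bak1 and Bbc3 have nearly the same value in both AP libraries and are higher in MYC in the DLP and VP, while Bcl2l1 and Bcl2 are lower in MYC in the VP.

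Trp53 (chromosome 11, 69580348 to 69591873 in GRCm38.p6) rose in the VP. It had 28.3 FPKM in the AP, 24.6 in the DLP and 16.9 in the VP of the WT mouse, beside 29.0, 39.5 and 37.4 in the same lobes of the MYC mouse. The WT VP value was thus the lowest of the 6, and the DLP and VP libraries of the MYC mouse were the highest. The ratio of MYC to WT was 2.21 in the VP (95% exact binomial counting interval 2.07 to 2.37), 1.60 in the DLP (1.5 to 1.71) and 1.02 in the AP (0.951 to 1.10). Such intervals rest on read numbers estimated from FPKM and transcript length, and cover counting error only. The log2 ratio in the VP, 1.10, was 0.87 when libraries were scaled to equal sums of FPKM, which takes Trp53 below 2-fold. Wrap53, which lies 98 bases upstream of Trp53 and is transcribed from the opposite strand, had 1.75 (WT) and 4.22 FPKM (MYC) in the VP. Whether counting used strand is not given in the sources used here, and a pseudogene copy, Trp53-ps, was not analysed here.

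Mdm2 (chromosome 10, 117688875 to 117710758), the ligase that degrades p53 and a p53 target, varied least of the 10 genes, with a highest value 1.49 times the lowest. It had 25.4 FPKM in the AP, 20.7 in the DLP and 26.7 in the VP of the WT mouse, beside 24.9, 29.0 and 30.8 in the same lobes of the MYC mouse. The ratio of MYC to WT was 1.40 in the DLP (1.30 to 1.51). Its interval in the VP was 1.08 to 1.23, but the sign there turned with scaling to equal sums of FPKM (log2 ratio -0.03). In FPKM, Trp53 was 0.633 times Mdm2 in WT VP and 1.21 times in MYC VP, while in the 4 libraries of the other lobes it lay between 1.12 and 1.36 times Mdm2. WT VP was therefore the only library with less Trp53 than Mdm2.

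Of the anti-apoptotic genes, Bcl2l1 fell in the VP, where Bcl2 was also lower and Mcl1 higher in MYC without passing 2-fold. Bcl2l1 (chromosome 2, 152758732 to 152833803), which encodes Bcl-xL, had 21.3 FPKM in the AP, 32.0 in the DLP and 22.8 in the VP of the WT mouse, beside 27.1, 29.1 and 10.3 in the same lobes of the MYC mouse. The MYC VP value was the lowest of the 6 libraries, with none of the others below 21.3 FPKM. Its ratio of MYC to WT was 0.454 in the VP (0.409 to 0.502), 0.909 in the DLP (0.844 to 0.978) and 1.27 in the AP (1.16 to 1.40). The log2 ratio in the VP was -1.07 and ranged from -1.29 with equal sums of FPKM to -0.79 relative to the luminal keratins Krt8 and Krt18, where Bcl2l1 no longer passed 2-fold. Relative to these keratins Bax and Bak1 passed 2-fold in the VP, each with a log2 ratio of 1.01.

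Bcl2 (chromosome 1, 106538176 to 106714290), the founding anti-apoptotic gene, was low throughout. It had 3.10 FPKM in the AP, 3.00 in the DLP and 1.68 in the VP of the WT mouse, beside 4.10, 3.91 and 0.597 in the same lobes of the MYC mouse. The ratio of FPKM in the VP was 0.356 (0.299 to 0.423), but because the gene is low its log2 ratio with a pseudocount of 1 was -0.75, short of 2-fold, and -1.35 with a pseudocount of 0.1. In the AP and DLP the ratio was above 1, at 1.32 (1.20 to 1.46) and 1.30 (1.19 to 1.42). Both VP libraries were below all AP and DLP libraries.

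Mcl1 (chromosome 3, 95656944 to 95663179), which encodes a short-lived anti-apoptotic protein, was the highest of the 10 genes in every library. It had 81.7 FPKM in the AP, 62.8 in the DLP and 50.4 in the VP of the WT mouse, beside 85.9, 82.7 and 63.9 in the same lobes of the MYC mouse. The ratio of MYC to WT was 1.27 in the VP (1.23 to 1.31) and 1.32 in the DLP (1.28 to 1.35), neither past 2-fold. Mcl1 made up 67.4% of the summed FPKM of the anti-apoptotic trio in WT VP. Its share in MYC VP, 85.4%, was the highest of the 6 libraries. The sum itself was 74.9 (WT) and 74.8 FPKM (MYC) in the VP. The summed anti-apoptotic level of the VP was thus nearly equal in both genotypes, with more Mcl1 and less Bcl2l1 and Bcl2 in MYC. In the DLP the sum was 97.8 in WT and 115.6 in MYC.

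The effectors Bax and Bak1, whose proteins form the pores that release cytochrome c, were both higher in MYC than in WT in the DLP and VP. Bax (chromosome 7, 45461695 to 45466903) had 23.8 FPKM in the AP, 26.3 in the DLP and 30.9 in the VP of the WT mouse, beside 24.9, 43.6 and 53.4 in the same lobes of the MYC mouse. The ratio was 1.73 in the VP (1.60 to 1.86) and 1.66 in the DLP (1.52 to 1.81), below 2-fold in both, and 1.05 in the AP (0.934 to 1.17). Bak1 (chromosome 17, 27019812 to 27028627) had 8.62 FPKM in the AP, 6.77 in the DLP and 5.48 in the VP of the WT mouse, beside 8.65, 16.1 and 10.8 in the same lobes of the MYC mouse. It rose in the DLP, with a ratio of 2.37 (2.09 to 2.69) and a log2 ratio of 1.13 that was 0.95, below 2-fold, relative to Krt8 and Krt18. In the VP the Bak1 ratio was 1.97 (1.72 to 2.27), with a log2 ratio of 0.87. Bak1 overlaps Ggnbp1, which had 4.64 (WT) and 9.20 FPKM (MYC) in the VP but 5.68 and 3.44 FPKM in WT and MYC DLP, so that reads shared between these genes are uncertain. In all 6 libraries Bax was between 2.72 and 5.63 times as high as Bak1.

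Of the BH3-only genes, Bbc3 rose in the VP and Pmaip1 in the DLP. Bbc3 (chromosome 7, 16308398 to 16318334), which encodes Puma, had 4.31 FPKM in the AP, 2.81 in the DLP and 5.12 in the VP of the WT mouse, beside 3.90, 5.86 and 14.1 in the same lobes of the MYC mouse. Its value in MYC VP was the highest, and its log2 ratio there, 1.30, was the largest of the members in the VP. The ratio was 2.75 in the VP (2.34 to 3.23) and 2.08 in the DLP (1.63 to 2.65), where the log2 ratio was 0.85 with a pseudocount of 1 and 1.03 with 0.1, and 0.904 in the AP (0.695 to 1.17). In the VP, Bbc3 passed 2-fold under all 3 other scalings and with a pseudocount of 0.1 (log2 ratio 1.08 to 1.44). Bbc3 also had the fewest estimated reads of the members in 5 of the 6 libraries, from 93.8 in WT AP.

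Pmaip1, which encodes Noxa, an antagonist chiefly of Mcl1, differed most across the libraries, with a highest value 9.88 times the lowest. It had 12.9 FPKM in the AP, 10.3 in the DLP and 3.48 in the VP of the WT mouse, beside 15.6, 34.4 and 6.84 in the same lobes of the MYC mouse. The ratio was 3.36 in the DLP (3.14 to 3.59), 1.97 in the VP (1.74 to 2.22) and 1.21 in the AP (1.12 to 1.32). The DLP log2 ratio of 1.65 stayed between 1.46 and 1.74 under the 3 other scalings and the lower pseudocount. Bcl2l11 (chromosome 2, 128126038 to 128162547), which encodes Bim, had 6.52 FPKM in the AP, 7.30 in the DLP and 4.30 in the VP of the WT mouse, beside 6.15, 8.26 and 5.78 in the same lobes of the MYC mouse. It did not pass 2-fold in any lobe, with ratios of 0.944 in the AP, 1.13 in the DLP and 1.34 in the VP (1.17 to 1.53).

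**Figure D2:**
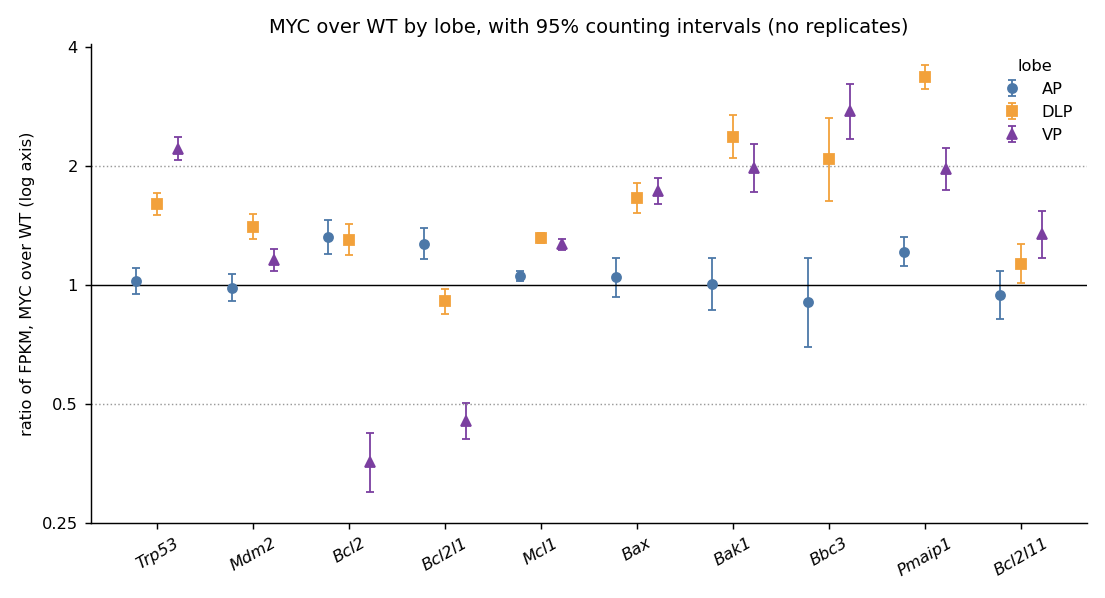
Ratio of FPKM, MYC over WT, for each gene in the AP (circles), DLP (squares) and VP (triangles) on a log axis; bars are 95% exact binomial counting intervals from estimated reads, which do not include differences between animals, and dotted lines mark 2-fold. The AP ratios lie between 0.904 and 1.32, the DLP ratios reach 3.36 (Pmaip1), and the VP ratios run from 0.356 (Bcl2) to 2.75 (Bbc3).

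Read by role, all 5 pro-apoptotic genes (Bax, Bak1, Bbc3, Pmaip1 and Bcl2l11) had log2 ratios above 0 in both the DLP and the VP, of which 2 passed 2-fold in the DLP and 1 in the VP. Over all compared genes, 53.5% lay above 0 in the DLP and 53.2% in the VP, and 6.46% and 6.88% passed 2-fold upwards. The median log2 ratio of the 5 genes was 0.85 in the DLP, 0.81 in the VP and 0.00 in the AP. The sign of Bcl2l11 in the DLP turned relative to Krt8 and Krt18 (-0.05), and the other signs of these genes in the DLP and VP held under the 3 other scalings and the lower pseudocount. In the AP, counting intervals held 1 for 6 of the 10 members, and the sign of 7 members depended on these choices.

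Ratios between members of 1 library do not depend on how libraries are scaled. Bax was 1.36 times Bcl2l1 in WT VP and 5.17 times in MYC VP, a 3.81-fold difference. In the DLP the ratio of Bax to Bcl2l1 was 0.824 in WT and 1.5 in MYC, and in the AP 1.12 in WT and 0.917 in MYC. MYC VP was above the other 5 libraries, all of which were at most 1.5. Bbc3 was 0.225 times Bcl2l1 in WT VP and 1.36 times in MYC VP, and between 0.0880 and 0.202 times in the AP and DLP libraries. The shifts in the VP were larger against the low Bcl2, such as 7.72-fold for Bbc3 over Bcl2, and smaller against Mcl1. Bax was 0.612 times Mcl1 in WT VP and 0.836 times in MYC VP. Pmaip1 was 0.163 times Mcl1 in WT DLP and 0.416 times in MYC DLP, the highest of the 6 libraries. The summed FPKM of the 3 BH3-only genes relative to the 3 anti-apoptotic genes was 0.172 (WT) and 0.357 (MYC) in the VP, 0.208 and 0.420 in the DLP, and 0.223 and 0.219 in the AP.

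**Figure D3:**
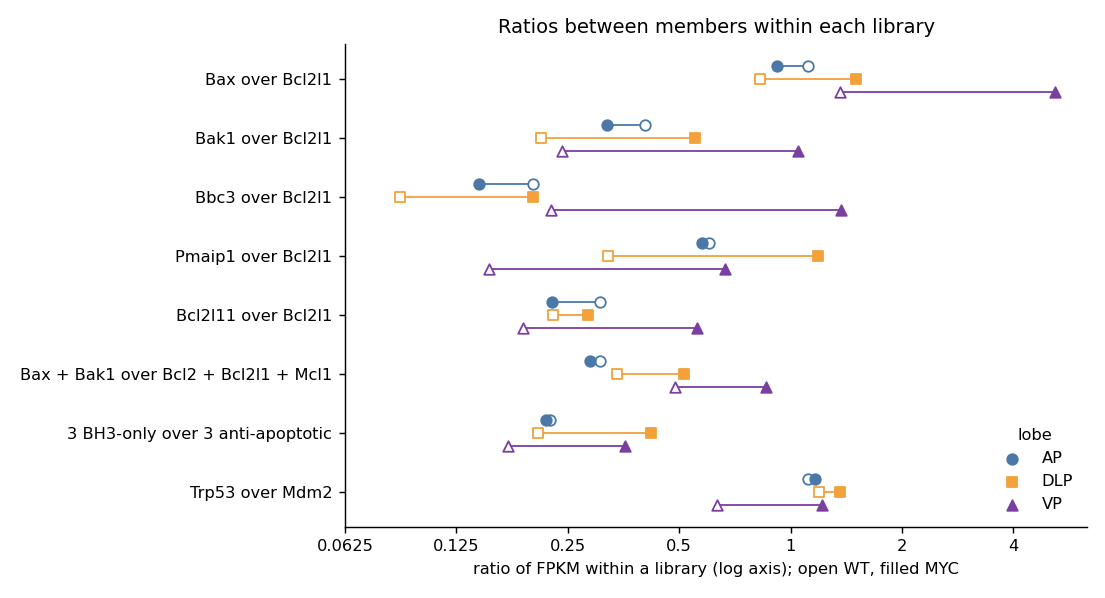
Ratios of FPKM between members within each library on a log axis, with WT as open and MYC as filled symbols joined by a line, for the AP (circles), DLP (squares) and VP (triangles); each symbol is 1 library and carries no error bar. Ratios to Bcl2 or to Mcl1 alone are not drawn. For each gene set over Bcl2l1 the line is longest in the VP, such as Bax over Bcl2l1 from 1.36 to 5.17, and shortest in the AP except for Bcl2l11.

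Among the WT lobes alone, Pmaip1 was the member that passed 2-fold. It was lower in WT VP than in WT AP (log2 ratio -1.63, 1 of 10 members against 18.2% of all compared genes, 7.89% higher and 10.3% lower) and than in WT DLP (-1.33, 1 of 10 against 8.92%, 2.63% higher and 6.29% lower). No member passed 2-fold between WT DLP and WT AP, against 5.16% of all compared genes (3.85% higher and 1.31% lower). These counts rest on the scaling: relative to Krt8 and Krt18, which are higher in WT VP, 10 members passed 2-fold against WT AP and 9 against WT DLP, beside 70.7% and 82.2% of all compared genes. With equal sums of FPKM and with size factors from medians of ratios the member counts were as above, but the balance over all compared genes moved: between WT DLP and WT AP 476 genes were higher and 162 lower as deposited, and 325 and 277 with equal sums, and between WT VP and WT DLP 325 and 778 as deposited, and 496 and 532 with size factors. As deposited, Trp53, Bcl2, Mcl1, Bak1 and Bcl2l11 were also lowest in WT VP among the WT libraries, at 16.9, 1.68, 50.4, 5.48 and 4.30 FPKM, whereas Mdm2, Bax and Bbc3 were highest there, at 26.7, 30.9 and 5.12 FPKM. The summed FPKM of 7 basal markers was 1552 in WT AP, 1108 in WT DLP and 506.2 in WT VP, and that of 6 endothelial markers 161.3, 117.3 and 25.99. The luminal list had 1862, 1937 and 4078 FPKM in the same order. The part of these cell types in the lobe differences was not tested.

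Within a library, Mcl1 led the order of the genes in all 6 libraries, and the ranks below it varied. Bax was 2nd in WT VP, MYC VP and MYC DLP, Trp53 in WT AP and MYC AP, and Bcl2l1 in WT DLP. Bcl2 was last in 4 libraries, and Bbc3 in WT DLP and MYC AP, where the pair differed by at most 0.203 FPKM. There is no replicate spread against which neighbours in this order could be judged.

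The rest of the pathway was described by 4 lists of 66 genes, of which 57 reached that minimum. In the VP 7 of them rose and 2 fell (15.8% against 12.8% of all compared genes), in the DLP 6 rose and none fell (10.5% against 9.85%), and in the AP 2 rose and 1 fell (5.26% against 2.65%). Pooled over the lists, the shares in the DLP and VP lie near the background. By list, the VP calls were uneven, with 4 rises and 1 fall among the 12 compared regulators of p53. No other BCL2 family gene of 12 was called there. Of 19 p53 targets 2 rose, and of 14 genes of the apoptosome list 1 rose and 1 fell. The luminal keratin scaling and the lower pseudocount each moved the AP count to 5, beside 4.39% and 5.15% of all compared genes. The keratin scaling also lowered the DLP count from 6 to 3, beside 11.7% of all compared genes.

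Of the 12 other BCL2 family genes compared, 2 passed 2-fold, both in the DLP. Over all compared genes, 9.85% passed in the DLP, 12.8% in the VP and 2.65% in the AP. Bcl2a1b, a copy of the anti-apoptotic A1 gene expressed in leukocytes, had 8.92 (WT) and 21.1 FPKM (MYC) in the DLP, but it shares sequence with Bcl2a1a and Bcl2a1d, and how reads were divided among these copies is uncertain. Bok, a relative of Bax and Bak1, had 2.90 (WT) and 7.77 FPKM (MYC) in the DLP. Their ratios were 2.36 (2.02 to 2.76) and 2.68 (2.22 to 3.24). In the VP no gene of the list passed 2-fold and the median was 0.16 on the log2 scale. Bcl2l14 had the lowest log2 ratio of the list there (-0.86), with 77.2 FPKM in WT and 42.1 FPKM in MYC.

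Of the 12 compared regulators of p53, 4 rose and 1 fell in the VP. Over all compared genes, 6.88% rose and 5.95% fell in the VP. The shares were 6.46% and 3.39% in the DLP, and 2.05% and 0.599% in the AP. Atm, the kinase that signals DNA breaks to p53, had 2.54 (WT) and 6.35 FPKM (MYC) in the VP, and the checkpoint kinase gene Chek1 had 0.296 and 2.83 FPKM. Rpl5 and Rpl11, ribosomal protein genes whose products can bind Mdm2, rose in the VP from 480.6 to 1138 FPKM and from 262.8 to 565.5 FPKM. Chek1 also rose in the DLP, from 0.531 to 3.17 FPKM. It was under 1 FPKM in all 3 WT libraries and reached the minimum mean only through the MYC libraries, so that its calls follow in part from the filter. Trp63, the p53 relative that marks basal cells, fell in the VP from 3.17 to 0.814 FPKM and rose in the DLP from 3.81 to 13.5 and in the AP from 5.79 to 19.2 FPKM. Over the 7 basal markers, Trp63 among them, the summed FPKM was 1552 (WT) and 1004 (MYC) in the AP, 1108 and 1461 in the DLP, and 506.2 and 352.8 in the VP. In the AP only Trp63 of these passed 2-fold upwards and 1 fell, in the DLP 2 rose and none fell, and in the VP all 7 lay below 0, with only Trp63 past 2-fold. Mdm4, the Mdm2 partner, had between 17.1 and 24.0 FPKM in all 6 libraries.

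Cdkn2a, whose ARF product restrains Mdm2, was named after its values were seen, since its mean of 0.962 FPKM left it out of the comparison. In the WT mouse it had 0.0608 FPKM in the AP and 0.178 in the VP and was listed at 0 in the DLP. In the MYC mouse it had 0.331 FPKM in the AP, 1.58 in the DLP and 3.62 in the VP. The ratio in the VP was 20.3 (9.14 to 57.4), from 6.08 estimated reads in WT and 103.1 in MYC. In the AP the interval held 1 (0.816 to 241.5). The gene also encodes the CDK inhibitor p16, and FPKM per gene do not separate these products.

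Of the 19 compared p53 target genes other than the members, 2 rose in the VP, 1 rose and 1 fell in the AP, and none passed 2-fold in the DLP. Over all compared genes, 12.8% passed in the VP, 2.65% in the AP and 9.85% in the DLP. Sesn1, a stress-induced regulator of mTORC1 signalling, had 6.04 (WT) and 30.7 FPKM (MYC) in the VP, a ratio of 5.08 (4.70 to 5.49), and rose in the AP from 3.92 to 9.06 FPKM. Trp53inp1 had 10.5 and 24.5 FPKM in WT and MYC VP. Sesn2 fell in the AP, from 20.4 to 8.54 FPKM. In the VP, 8 of these genes lay above 0 and 11 below, beside 46.4% of all compared genes below 0, with a median of -0.05 (log2 ratio), beside 0.06 in the AP and 0.34 in the DLP. Cdkn1a, which encodes p21 and is the best known p53 target, had 74.8 FPKM in the AP, 55.0 in the DLP and 53.3 in the VP of the WT mouse, beside 53.9, 89.97 and 31.7 in the same lobes of the MYC mouse, so that MYC was below WT in the AP and VP and above it in the DLP.

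Among 14 genes of the apoptosome, the caspases and their inhibitors, Htra2 rose in the VP and DLP, Casp2 rose in the DLP and Casp6 fell in the VP. Over all compared genes, 12.8% passed 2-fold in the VP and 9.85% in the DLP. Htra2, a mitochondrial protease that antagonizes inhibitors of apoptosis, had 9.93 (WT) and 40.4 FPKM (MYC) in the VP, and 6.70 and 15.2 FPKM in the DLP. Casp2, an initiator caspase gene, had 4.85 and 11.5 FPKM in WT and MYC DLP. Casp6, an executioner caspase gene, had 11.5 and 5.16 FPKM in WT and MYC VP. Apaf1, the scaffold of the apoptosome, had a log2 ratio of 0.19 in the VP.

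**Figure D4:**
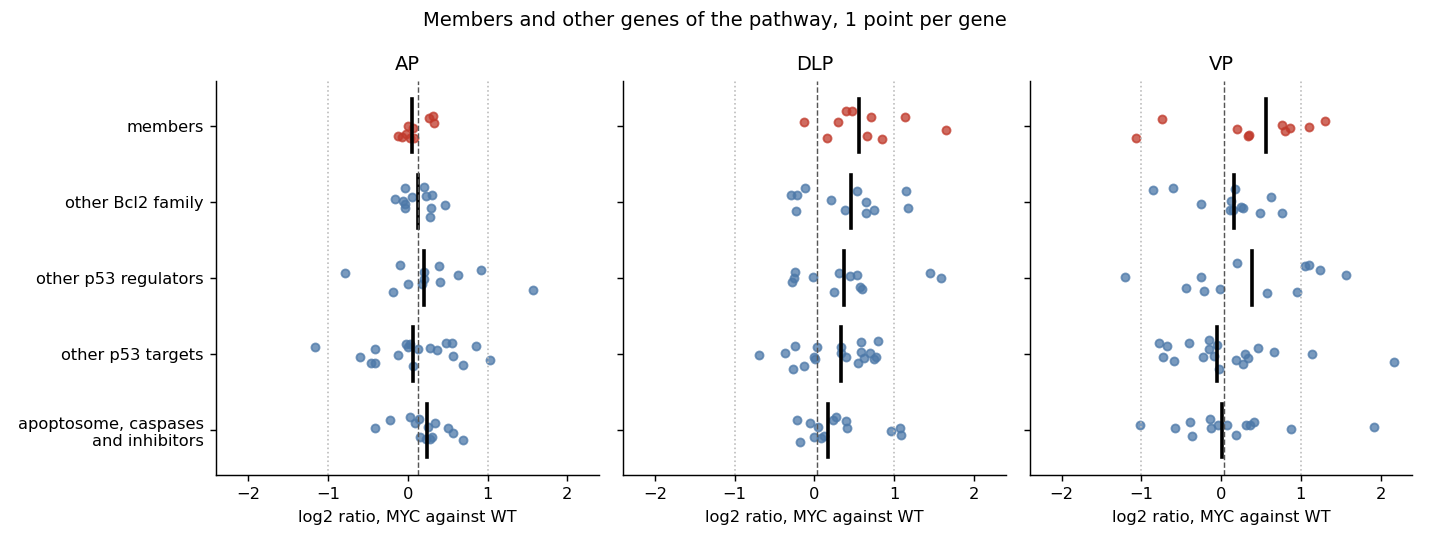
Log2 ratio of MYC against WT in the AP, DLP and VP for the 10 members (red) and 4 other lists of the pathway (blue), 1 point per gene that reached the minimum mean of 1 FPKM, spread vertically at random; black bars are list medians, the dashed line is the median of all compared genes and dotted lines mark 2-fold. The member medians are 0.05, 0.56 and 0.56 in the AP, DLP and VP, and the p53 targets have medians of 0.06, 0.34 and -0.05.

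Other genes with profiles like those of the members were found by the root mean square difference of log2(FPKM + 1), each centred on its own mean, over the 6 libraries, among 5360 genes whose mean was 10 FPKM or more. The 3 nearest to Trp53 were Dcakd (0.0613), Ddx39 (0.1004) and Rgl2 (0.101). Dcakd had 6.03 (WT) and 13.7 FPKM (MYC) in the VP. The 3 nearest to Bbc3 were Snapc4 (0.179), Ddit4 (0.183) and Aldh7a1 (0.196), of which Ddit4 had 89.3 (WT) and 189.6 FPKM (MYC) in the VP. With 6 libraries, a like profile is a description only.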

How the data were processed

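Bulk RNA-seq of 6 libraries was analysed, 1 per lobe and genotype, with groups and columns taken from the sample titles. Per the labels and methods, the authors ran bcl2fastq 2.18, STAR and Cufflinks within VIPER against mm10. The gene annotation is not given in the sources used here. The deposited values are FPKM, although the methods speak of read counts: most carry decimals, and library sums range from 374085 to 483143. No count model was therefore run, and with 1 library per group no test. Log2 ratios used a pseudocount of 1 and the values as deposited, over genes whose mean was 1 FPKM or more.

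Depth was recovered from single-exon, single-transcript genes longer than 600 bases at under 0.3 FPKM, at an assumed fragment length of 200 bases. Of 87 to 115 such low values in a library, 55.2% to 64.2% came within 3% of whole reads. The depth was chosen to fit these values and the margin widens with the read number. Some values therefore match by chance, and that share was not computed. Reads per gene were estimated from FPKM, depth and mean GENCODE M1 transcript length (NCBIM37, used for lengths only), and gave exact 95% binomial (Clopper-Pearson) intervals of ratios. Gene positions and promoters are from RefSeq on GRCm38.p6, in which all 10 members were found by symbol. Depth recovery and 2-fold calls were also run on simulated libraries, made with the same transcript lengths and fragment length that the method assumes. These simulations cannot show whether those assumptions hold in the real libraries.

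Members and lists were chosen with earlier results of these data known. All members were named, with other list genes past 2-fold in any lobe, and the 3 nearest profiles to Trp53 and to the member with the largest VP log2 ratio; list genes named beyond this rule, such as Cdkn2a, Cdkn1a, Mdm4, Bcl2l14 and Apaf1, were chosen after their values were seen. Alternatives were 3 other scalings, a pseudocount of 0.1, other filters on low values and fold thresholds of 1.5 and 4. Software was scipy 1.17.1, pandas 2.3.3, numpy 2.4.6 and, for plots, matplotlib 3.10.9, under Python 3.11.15.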

Additional observations from a re-analysis of the deposited data

Results flagged for a closer look

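Bcl2 and Bcl2l1 are given because their ratios of MYC to WT lay on opposite sides of 1 in different lobes, each with a counting interval that leaves out 1. The log2 ratio of Bcl2 was 0.31 in the AP, 0.29 in the DLP and -0.75 in the VP, a difference of -1.06 for VP minus AP and -1.04 for VP minus DLP. The log2 ratio of Bcl2l1 was 0.33 in the AP, -0.13 in the DLP and -1.07 in the VP, a difference of -1.40 for VP minus AP. Its DLP ratio of 0.909 (0.844 to 0.978) also lay on the other side of 1 from its AP ratio of 1.27 (1.16 to 1.40). Whether the lobes differ was not tested, because every group is a lone library.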

How the results depend on the processing

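No member that passed 2-fold changed sign under the 3 other scalings, a pseudocount of 0.1 or no filter. Scaling moved the median log2 ratio of all compared genes in the VP from 0.04 to -0.15 with equal sums of FPKM and to 0.24 relative to Krt8 and Krt18, and the share of rises among calls from 53.6% to 33.8% and 75.5%. Relative to Krt8 and Krt18 that share was 46.8% in the DLP (65.6% as deposited) and 89.9% in the AP (77.4%), and with size factors from medians of ratios 59.9% in the AP. Relative to Krt8 and Krt18, which are higher in WT VP than in the other WT lobes, 1 member passed 2-fold in the DLP in place of 2 (11.7% of all genes in place of 9.85%), 10 passed between WT VP and WT AP in place of 1 (70.7% of all genes), 9 passed between WT VP and WT DLP in place of 1 (82.2%), and of the other lists 5 genes in place of 3 in the AP (4.39% of all genes in place of 2.65%) and 3 in place of 6 in the DLP. With a pseudocount of 0.1, 5 genes of the other lists passed in the AP (5.15% of all genes). With a minimum mean of 10 FPKM, 1 member passed in the DLP (8.13% of 5360 genes), since Bak1 is below that mean. At 1.5-fold, 7 members passed in the VP (31.7% of all genes), 5 in the DLP (22.9%), 4 between WT VP and WT AP (37.9%) and 3 between WT VP and WT DLP (24.9%). At 4-fold 0 members passed in each of these. The shares of all genes at 4-fold were 2.12% in the VP, 2.22% in the DLP, 3.34% between WT VP and WT AP and 1.43% between WT VP and WT DLP. Other counts of members stayed within 1.5 times, as did those of list genes where computed. List genes were not counted at a minimum mean of 10 FPKM or at 1.5-fold and 4-fold. No paired analysis was run. All lobes of a genotype come from 1 mouse, so pairing MYC with WT by lobe would treat the lobes of 1 mouse as replicates of its genotype. With 1 library per group, no library could be left out, and WT AP is the shallowest library.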
